A study of Mus musculus with 12 samples.

Results

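Polyamines are small, positively charged molecules that proliferating cells make in large amounts, and activated T cells are known to induce their synthesis. Ornithine decarboxylase, encoded by Odc1, makes putrescine from ornithine, and S-adenosylmethionine decarboxylase, encoded by Amd1, makes the aminopropyl donor that spermidine synthase (Srm) and spermine synthase (Sms) add in turn. Antizymes (Oaz1, Oaz2) bind ornithine decarboxylase and send it to the proteasome, whereas the antizyme inhibitor (Azin1) binds antizymes and spares it. Sat1 acetylates spermidine and spermine for export or oxidation, Paox oxidizes the acetylated forms, and Smox oxidizes spermine back to spermidine. These 10 genes were picked by symbol, with earlier results of these data known. They were taken as the genes of polyamine synthesis, antizyme control and catabolism, out of 40840 symbols counted. All 10 were among the 13570 genes with enough counts to be tested.

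Expression was measured by RNA-seq in donor OTII cells, CD4+ T cells that carry a transgenic T-cell receptor for a peptide of ovalbumin (OVA), after transfer into WT or Il6-/- recipients. All recipients were sensitized through the nose with house dust mite (HDM) extract and OVA. The labels describe the OVA as free of LPS, and the study describes the HDM given as containing LPS. The donor cells were sorted from the mediastinal lymph nodes (mLNs) on Day 3 or Day 5, with 3 replicates in each of the 4 groups: WT Day 3, Il6-/- Day 3, WT Day 5 and Il6-/- Day 5. The Il6 deletion was in the recipient alone and affected all its cells. The OTII cells kept their own Il6, so Il6 reads in them do not check the labels. The labels name blood as the tissue, and neither they nor the study say whether a replicate was a single mouse or a pool or how old the mice were, so p-values measure only the spread between these samples.

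Libraries held from 16125947 to 26111657 reads on genes, which were 60.2% to 62.2% of all reads in the Day 3 libraries and 52.5% to 56.7% in the Day 5 libraries. The 9 T cell markers, among them Cd3e and Cd4, summed to between 6400 and 13100 CPM per library. The 8 B cell markers summed to between 5.5 and 11.8 CPM and the 12 myeloid and dendritic cell markers to between 14.5 and 135 CPM, with the dendritic cell gene Clec9a at 0 in all libraries. The 6 CD8 and NK cell markers reached at most 114 CPM, the 5 lung epithelium markers 20.7 CPM and the 5 erythroid markers 1.14 CPM. In bulk samples such as these, fewer cells of a type and less RNA per cell cannot be told apart.

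Odc1 is a textbook target of the transcription factor Myc, which binds with Max to the letters CACGTG, known as an E-box. The letters read the same on both strands. They were searched from 250 bases before to 1000 bases after the first base of each gene's canonical transcript on GRCm39, a window set after the sequences had been looked at. Of 21766 protein-coding genes, 20.1% held the letters at least once in this window, 3.24% at least 2 times and 6.26% in the 250 bases before the start. Among the 10 polyamine genes, Srm held 5 copies, Odc1 2 copies, and Sms, Azin1 and Paox 1 copy each. Srm and Sms were the members with a copy before the start, and Amd1, Sat1, Oaz1, Oaz2 and Smox held none. The copies of Odc1, Srm and Sms are shown because, among the synthesis genes, these 3 held the letters, and Odc1 and Srm fell most from Day 3 to Day 5. Amd1, with no copy, fell too (2.04-fold in WT and 2.71-fold in Il6-/- recipients). So did Azin1, whose copy is not shown (2.18-fold and 2.02-fold). A link between copies and the fall was not tested. As the window was set after looking, the shares over all genes are no independent yardstick. Each line reads 5′ to 3′ on the strand of the gene, with the E-box in capitals. The Odc1 copies lay in intron 1, 509 and 549 bases after the start, on the plus strand at chr12:17595187-17595216 and chr12:17595227-17595256. The Srm copies lay on the plus strand of chromosome 4, one 152 bases before the start at chr4:148675776-148675805 and the others in intron 1, 366, 424, 440 and 482 bases after it, within chr4:148676294-148676439. The Sms copy lay on the minus strand 183 bases before the start, at chrX:156275462-156275491. A match describes the letters and not binding.
Odc1, intron 1, 509 bases after the start: gggatgtgcggcCACGTGtcgcgaggcccg
Odc1, intron 1, 549 bases after the start: gccggcaggggaCACGTGgcccgggaccgg
Srm, 152 bases before the start: agggcctctcccCACGTGgcccggcagccg
Srm, intron 1, 366 bases after the start: cggccctgcgtcCACGTGtcactatcggga
Srm, intron 1, 424 bases after the start: acccagcccccaCACGTGgctcgcctgcca
Srm, intron 1, 440 bases after the start: tggctcgcctgcCACGTGtcaccccgaatg
Srm, intron 1, 482 bases after the start: ccccatggcggcCACGTGcacgcccaggga
Sms, 183 bases before the start: cccagcggggttCACGTGcatttaaagaaa

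Levels are given as CPM, counts brought to a common scaled library size. To compare genes with each other, CPM were divided by exon length in kilobases, counted over the exons of all annotated transcripts of a gene. On this scale Oaz1 stood far above the other members, at 363 ± 18.7 CPM per kilobase (SD, n = 3) in WT recipients on Day 3. Sat1 followed at 36.6 ± 2.76 and Azin1 at 32.3 ± 2.42, and these neighbours did not differ beyond their spread. Sms (21.5 ± 1.88), Odc1 (18.9 ± 9.23) and Srm (18.8 ± 5.1) likewise lay within each other's spread. Oaz2 had 13.8 ± 0.624 and Amd1 9.1 ± 0.546. Oaz2 lay within the spread of Odc1 and Srm, so their order was not resolved, and the mean of Odc1 was raised by WT replicate 1. The oxidases were lowest, Paox at 2.28 ± 0.0685 and Smox at 0.986 ± 0.0743 CPM per kilobase. Many members have near-identical copies in the genome, where reads of 50 bases cannot be placed and were not counted. The share of 50-base windows of the canonical transcript that also occurred elsewhere was 84.3% for Oaz1, 74.5% for Amd1, 57.6% for Oaz2, 57.2% for Odc1, 41.5% for Sms, 40.7% for Sat1, 33.5% for Paox and 4.58% for Srm, and 0 for Azin1 and Smox. The exon length also exceeded the canonical transcript by unlike amounts. It was 4349 bases for Srm and 9578 for Azin1, whose canonical transcripts held 1309 and 5229 windows of 50 bases. The order of the levels is therefore uncertain. Short stretches of Odc1, Oaz1, Smox and Paox exons overlap those of Gm22748, Mir1982, Gm30679 and Echs1, over 136, 74, 314 and 142 bases.

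**Figure D1:**
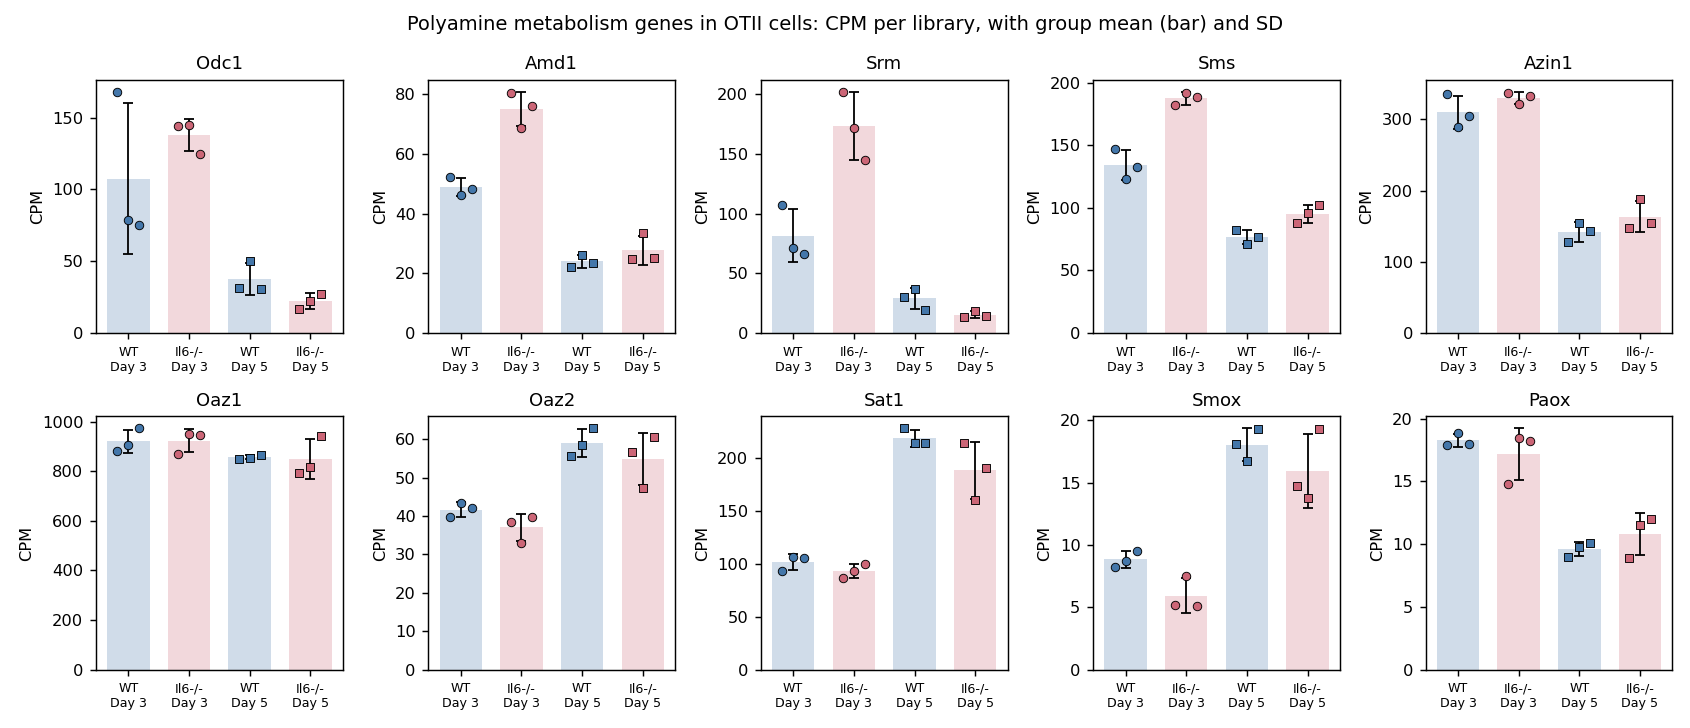
CPM of the 10 polyamine genes in each of the 12 libraries (points: circles Day 3, squares Day 5, blue WT and red Il6-/- recipients), with group mean (bar) and SD (line). Srm was highest in Il6-/- recipients on Day 3 (145 to 202 CPM) and lowest in Il6-/- recipients on Day 5 (13.3 to 18.5 CPM), whereas Sat1 was higher in every Day 5 library than in any Day 3 library.

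The first question was how priming without recipient IL-6 changed these genes on Day 3. The genes of aminopropyl transfer were higher when OTII cells were primed without it: Srm by 2.11-fold, Amd1 by 1.53-fold and Sms by 1.4-fold, while the spermine oxidase gene Smox was lower. In edgeR's quasi-likelihood test, with Benjamini-Hochberg adjustment over all genes tested, 3 of the 10 members were called higher and 1 lower at an FDR under 0.05. Of all genes, 7.52% were called higher and 6.19% lower, 1021 and 840 genes. Without scaling beyond library totals the split of all genes was 703 higher and 1088 lower. The libraries of the groups did not overlap for 4 of 10 members, and for 36.2% of all genes. The median log2 change of the members was 0.05, against 0.01 over all genes.

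Srm, at chr4:148675940-148681792, had 107, 71.4 and 66.3 CPM in the WT libraries on Day 3 and 202, 172 and 145 CPM in the Il6-/- libraries. The lowest Il6-/- library thus lay above the highest WT library, and the log2 change was 1.08 ± 0.21 (SE, FDR = 0.0032). Amd1 gave 52.2, 46.4 and 48.3 CPM with WT and 80.3, 68.8 and 75.9 CPM with Il6-/- recipients, a log2 change of 0.61 ± 0.12 (FDR = 0.0028). Sms gave 147, 123 and 133 CPM with WT and 182, 192 and 189 CPM with Il6-/- recipients, a log2 change of 0.48 ± 0.09 (FDR = 0.0018). For none of these genes did the groups overlap, and their calls held in all 12 fits that left out 1 library.

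Odc1, at chr12:17594383-17601507, the first and rate-limiting enzyme of the pathway, had 168, 78.8 and 75.3 CPM in the WT libraries on Day 3 and 144, 145 and 125 CPM in the Il6-/- libraries. WT replicate 1 lay above every Il6-/- library, and the other WT libraries lay below them. The log2 change was 0.36 ± 0.26 (FDR = 0.42). Without WT Day 3 replicate 1 it was 0.84 (FDR = 0.014), the 1 call in the 12 fits without 1 library. Over those fits it ranged from 0.17 to 0.84, with FDRs up to 0.79. With WT Day 3 replicate 1 kept, Odc1 was called only when no low-count filter was used (0.36, FDR = 0.011), among the alternatives run. That fit left the log2 change as it was and moved the FDR alone. It did likewise for Odc1 on Day 5 (-0.75, FDR = 2.6e-09) and in the interaction (1.11, FDR = 1.8e-10). Why its FDRs fell was not tested, and they are not taken as support. WT replicate 1 also had the highest WT value of Srm, Amd1 and Sms. It was the deepest library, with 26111657 reads on genes, and had the highest sum of myeloid and dendritic cell markers on Day 3, 67.4 CPM against 14.5 to 48.4 CPM in the others. The part of either in the Odc1 value was not tested.

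Smox was low throughout, at 8.23, 8.75 and 9.55 CPM with WT and 5.17, 7.53 and 5.12 CPM with Il6-/- recipients on Day 3. The groups did not overlap and the log2 change was -0.57 ± 0.18 (FDR = 0.049). This call was held in 4 of the 12 fits without 1 library. It was lost without any of the WT libraries of Day 3 (FDR 0.065, 0.12 and 0.15 for replicates 1, 2 and 3), of the WT libraries of Day 5 (0.057, 0.058 and 0.054) or of Il6-/- Day 3 replicates 1 and 3 (0.18 and 0.17). RLE scaling (FDR = 0.052), limma-voom (FDR = 0.074) and a GC-content offset (FDR = 0.063) ended it as well. The other catabolic and control genes were not called on Day 3. Sat1 had 93, 107 and 106 CPM with WT and 87, 93.4 and 99.5 CPM with Il6-/- recipients, a log2 change of -0.13 ± 0.1 (FDR = 0.47). Azin1 differed by 0.09 ± 0.1, Oaz1 by 0 ± 0.07, Oaz2 by -0.17 ± 0.11 and Paox by -0.09 ± 0.14 on the log2 scale. In each of these the WT and Il6-/- libraries overlapped.

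**Figure D2:**
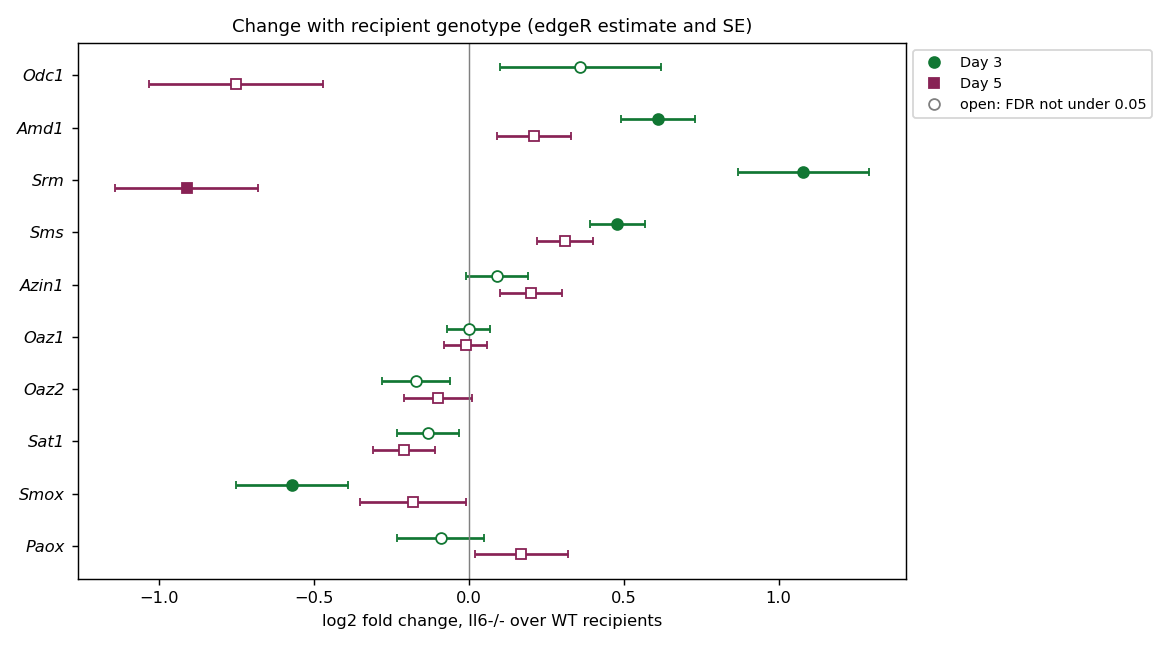
Log2 fold change (edgeR estimate, line: SE) of the 10 genes in Il6-/- over WT recipients, on Day 3 (green circles) and Day 5 (purple squares), filled where the FDR was under 0.05. Srm was at 1.08 on Day 3 and -0.91 on Day 5, on opposite sides of 0, while the points of Oaz1 lay at 0 and -0.01.

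On Day 5 the same comparison gave another picture. Srm was lower in OTII cells from Il6-/- recipients, the only member called at an FDR under 0.05, with 0 of the 10 called higher and 1 lower. Of all genes, 1.27% were called higher and 3.35% lower, 172 and 454 genes, or 273 and 396 genes without scaling. Groups did not overlap for 3 of 10 members (Srm, Odc1 and Sms) and for 19.6% of all genes. The median log2 change of the members was -0.06, against 0.01 over all genes.

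Srm had 30.3, 37.1 and 19.6 CPM with WT and 13.3, 18.5 and 14.5 CPM with Il6-/- recipients on Day 5. WT replicate 3 and Il6-/- replicate 2 lay close to each other. The log2 change was -0.91 ± 0.23 (FDR = 0.035). Its call was held in 6 of 12 fits without 1 library and lost without WT Day 5 replicates 1 (FDR = 0.12) or 2 (FDR = 0.14), Il6-/- Day 5 replicates 1 (FDR = 0.064), 2 (FDR = 0.05) or 3 (FDR = 0.11), or Il6-/- Day 3 replicate 2 (FDR = 0.054). With limma-voom the FDR was 0.11. Odc1 had 31.3, 50.3 and 31 CPM with WT and 16.9, 22.3 and 27.5 CPM with Il6-/- recipients. All Il6-/- libraries thus lay below the lowest WT library, and the log2 change of -0.75 ± 0.28 was not called (FDR = 0.14). Without WT Day 3 replicate 1, a library of neither group, the change was again -0.75 (FDR = 0.03). This was the 1 call of Odc1 in the 12 fits without 1 library. Over those fits the change ranged from -0.94 to -0.48, with FDRs up to 0.42. Sms pointed the other way, with 82.4, 71.1 and 76.8 CPM in WT and 87.7, 95.6 and 102 CPM in Il6-/- recipients, a log2 change of 0.31 ± 0.09 (FDR = 0.058). It was called without WT Day 3 replicate 1 (FDR = 0.049) and without Il6-/- Day 5 replicate 1 (FDR = 0.027).

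Deviations of the Day 5 libraries with the same replicate number correlated at 0.24, 0.21 and 0.13. With a replicate block within day 3 members were called. These were Srm (log2 change -0.88, FDR = 0.00066), Odc1 (-0.74, FDR = 0.031) and Sms (0.31, FDR = 0.031), and the count over all genes went from 626 to 1592. The block was chosen from these same data, and the labels do not say what a number shares. The added calls of Odc1 and Sms are therefore not independent support. None of the other 7 members was called on Day 5 with or without the block. Their log2 changes without the block lay between -0.21 (Sat1) and 0.21 (Amd1). Amd1 had 22.2, 26.2 and 23.5 CPM with WT and 24.7, 33.4 and 25 CPM with Il6-/- recipients. Sat1 had 228, 214 and 214 CPM with WT and 214, 160 and 191 CPM with Il6-/- recipients. In both genes the genotypes overlapped.

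The change with genotype was then compared between the days as an interaction. For Srm the change differed by 1.99 ± 0.31 on the log2 scale (Day 3 minus Day 5, FDR = 0.0043). It was the single member called, among 3.12% of all genes called in this direction and 1.8% in the opposite one (424 and 244 genes, or 228 and 420 without scaling). In the 12 fits without 1 library the Srm difference lay between 1.77 and 2.24, and it was called in all of them. For Odc1 the difference of 1.12 ± 0.38 was not called (FDR = 0.11). Without WT Day 3 replicate 1 it was 1.6 (FDR = 0.0058), the 1 call in the 12 fits without 1 library. Over those fits it ranged from 0.85 to 1.6, with FDRs up to 0.25. With the block within day, Odc1 (1.2, FDR = 0.013) and Amd1 (0.41, FDR = 0.048) were called besides Srm. That block also paired the Day 3 libraries, whose deviations correlated at no more than 0.06. The median over the members was 0.05, against 0 over all genes.

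The ratio of Srm to Sms CPM within a library, taken after their values were seen, put spermidine synthase transcripts against those of spermine synthase. It was 0.729, 0.579 and 0.497 with WT and 1.11, 0.894 and 0.764 with Il6-/- recipients on Day 3. On Day 5 it was 0.368, 0.523 and 0.255 with WT and 0.151, 0.194 and 0.142 with Il6-/- recipients. The Il6-/- libraries thus held both the 3 highest and the 3 lowest ratios of the 12 libraries.

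Time changed these genes more than genotype did. From Day 3 to Day 5 in WT recipients the synthesis genes and Azin1 fell, and Sat1, Smox and Oaz2 rose. Of the 10 members 3 were called higher and 6 lower, where 29.5% of all genes were called higher and 27.1% lower. The groups did not overlap for 10 of 10 members and for 63.3% of all genes. In Il6-/- recipients again 3 were called higher and 6 lower, against 30.4% and 30.1% of all genes (4122 and 4089 genes, or 5089 and 3340 without scaling). There 9 of 10 members and 65.8% of all genes had groups that did not overlap. Members' median log2 changes were -0.87 in WT and -0.83 in Il6-/- recipients, where all genes had 0.09 in each. Without scaling the median of all genes in Il6-/- recipients shifted by 0.15. These comparisons use the same libraries as those between genotypes and are not independent of them.

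**Figure D3:**
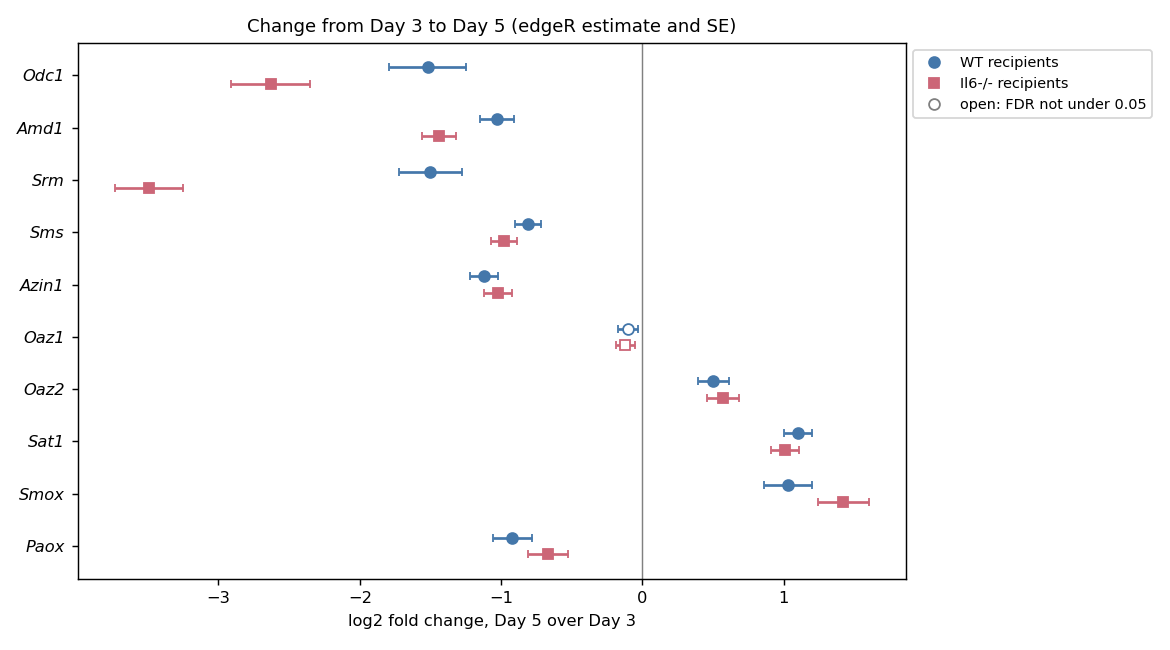
Log2 fold change (edgeR estimate, line: SE) of the 10 genes from Day 3 to Day 5 in WT (blue circles) and Il6-/- recipients (red squares), filled where the FDR was under 0.05. Srm lay at -1.5 in WT and -3.49 in Il6-/- recipients, Sat1 at 1.1 and 1.01, and Oaz1 near 0 in both.

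Srm fell 2.82-fold in WT recipients (log2 change -1.5 ± 0.22, FDR = 3.3e-05) and 11.2-fold in Il6-/- recipients (-3.49 ± 0.24, FDR = 2e-08). In Il6-/- recipients it ranked 16 from the bottom among the 13570 genes tested. Odc1 fell 2.87-fold with WT (-1.52 ± 0.27, FDR = 0.00022) and 6.21-fold with Il6-/- recipients (-2.63 ± 0.28, FDR = 1.4e-06). Left without WT Day 3 replicate 1, the WT change of Odc1 was -1.04 on the log2 scale and was still called. Amd1 fell 2.04-fold and 2.71-fold, and Sms 1.75-fold and 1.98-fold. The test of whether the fall differed between the genotypes is the interaction given above, and was passed by Srm.

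Among the genes that act on ornithine decarboxylase protein, Azin1 had 335, 289 and 305 CPM with WT and 337, 321 and 333 CPM with Il6-/- recipients on Day 3. On Day 5 it had 128, 155 and 143 CPM and 148, 188 and 154 CPM. The fall was 2.18-fold for WT (FDR = 2.4e-07) and 2.02-fold for Il6-/- recipients (FDR = 4.8e-07). Oaz2 went the other way, from 39.7, 43.4 and 42 to 55.7, 58.4 and 62.8 CPM in WT recipients. In Il6-/- recipients Oaz2 went from 38.4, 33 and 39.8 to 56.6, 47.3 and 60.7 CPM. Its rise was 1.42-fold (FDR = 0.00088) and 1.48-fold (FDR = 0.00029). Oaz1, the more abundant antizyme transcript, ranged from 792 to 972 CPM over all libraries. With time its log2 change was -0.1 ± 0.07 for WT (FDR = 0.26) and -0.12 ± 0.07 for Il6-/- recipients (FDR = 0.18). Without Il6-/- Day 5 replicate 3 the latter was -0.2 (FDR = 0.034), with a GC-content offset -0.23 (FDR = 0.019), and without scaling 0.03. The WT change was called with a GC-content offset together with the replicate block (-0.17, FDR = 0.033).

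Of the catabolic genes, Sat1 rose 2.15-fold in WT (log2 change 1.1 ± 0.1, FDR = 3.3e-07) and 2.02-fold in Il6-/- recipients (1.01 ± 0.1, FDR = 5.8e-07). The lowest Day 5 library (160 CPM) lay above the highest Day 3 library (107 CPM). Smox rose 2.04-fold with WT (FDR = 0.00014), to 18.1, 16.7 and 19.3 CPM, and 2.68-fold with Il6-/- recipients (FDR = 6.9e-06), to 14.7, 13.8 and 19.3 CPM. Paox did not follow them. It fell from 17.9, 18.9 and 18 to 8.96, 9.77 and 10.1 CPM in WT recipients (1.9-fold, FDR = 5.7e-05). In Il6-/- recipients Paox fell from 14.8, 18.5 and 18.2 to 8.94, 11.5 and 12 CPM (1.59-fold, FDR = 0.00087). For the 9 members called, every call in both genotypes held in all 12 fits without 1 library.

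The sum of the 15 proliferation genes, such as Mki67 and Mcm5, moved with the days too. It was between 7780 and 8760 CPM in the Day 3 libraries and between 866 and 2460 CPM on Day 5. With time 15 of 15 were called lower in each genotype, where 27.1% (WT) and 30.1% (Il6-/-) of all genes were. Between genotypes, edgeR called 0 of 15 on Day 3, with 1 at an unadjusted p under 0.05 and 0 called by DESeq2 or limma-voom. On Day 5 edgeR and limma-voom called 0 of 15 and DESeq2 5, and 14 had an unadjusted p under 0.05. Of all genes, edgeR called 1.27% higher and 3.35% lower, and those at an unadjusted p under 0.05 were not counted. With the replicate block within day 15 of 15 were called higher, at log2 changes of 0.36 (Pcna) to 0.84 (Plk1). In the interaction 12 of 15 were called with it, at log2 differences (Day 3 minus Day 5) of -0.85 (Plk1) to -0.35 (Mcm6). Without the block, 1.8% of all genes were called in that direction of the interaction. That block, chosen from these same data, raised the counts over all genes in both comparisons as well, as given below. By replicate number the sum was 866, 1360 and 1280 CPM with WT and 1200, 2460 and 1730 CPM with Il6-/- recipients, higher in the latter in 3 of 3 pairs. The median log2 change of these genes on Day 5 was 0.67 in the direction of Il6-/- recipients. Among the members, Sms (0.31), Amd1 (0.21), Azin1 (0.2) and Paox (0.17) had changes of the same sign. Srm (-0.91), Odc1 (-0.75), Sat1 (-0.21), Smox (-0.18), Oaz2 (-0.1) and Oaz1 (-0.01) had the opposite sign. Of the members, Srm alone was called there. The part of proliferation in the polyamine results was not tested. Myeloid and dendritic cell markers ranged from 14.5 to 67.4 CPM on Day 3 and from 21.7 to 135 CPM on Day 5 in sum. They overlapped between all groups. The CD8 and NK cell markers did not on Day 3, at 62.8 to 74.5 CPM in sum with WT and 83.6 to 114 CPM with Il6-/- recipients. There 1 of the 5 tested was called higher, beside 7.52% of all genes. On Day 5 the CD8 and NK cell markers overlapped, at 91.6 to 111 and 86.3 to 101 CPM, with 1 called lower, beside 3.35% of all genes. T cell markers summed to 7070 to 8310 CPM with WT and 6400 to 6510 CPM with Il6-/- recipients on Day 3. Of these 9 markers 4 were called lower, beside 6.19% of all genes. On Day 5 the T cell markers summed to 12900 to 13100 CPM with WT and 11000 to 12200 CPM with Il6-/- recipients, without overlap. There 1 of 9 was called lower, beside 3.35% of all genes. With time 9 of 9 were called higher in each genotype, where 29.5% (WT) and 30.4% (Il6-/-) of all genes were. The part of these markers in the polyamine results was not tested.

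**Figure D4:**
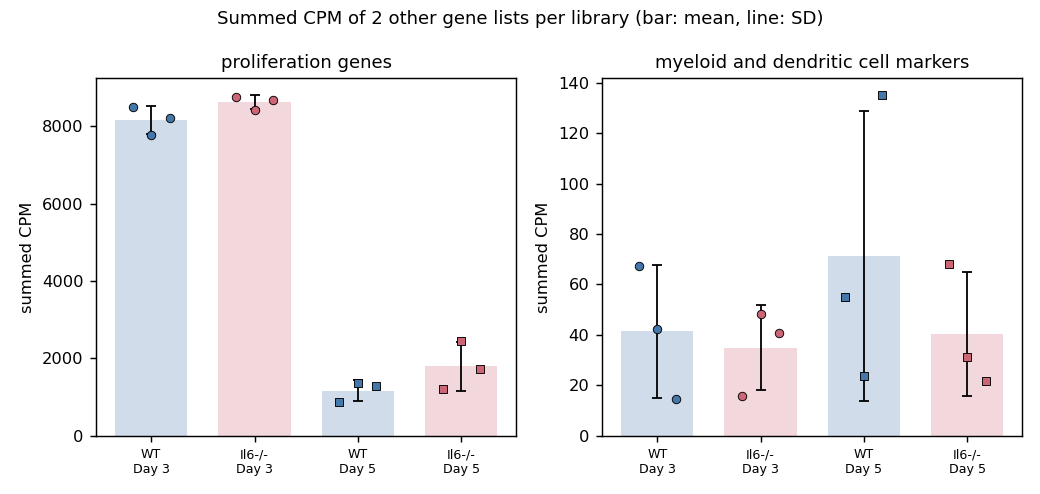
Summed CPM of 15 proliferation genes (left) and of 12 myeloid and dendritic cell markers (right) in each library, by recipient genotype and day (points: libraries, bar: mean, line: SD). The proliferation sum lay between 7780 and 8760 CPM on Day 3 and between 866 and 2460 CPM on Day 5, and the myeloid sum was highest in WT Day 5 replicate 3 at 135 CPM.

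Genes that feed, use or regulate the pathway, and paralogs of members, were taken from 7 lists of 39 genes in all. Of these, 23 had enough counts to be tested. The lists were chosen with earlier results of these data known, so a share above that of all genes is not independent support. On Day 3, 8 of the 23 were called higher and 0 lower in OTII cells from Il6-/- recipients, where 7.52% and 6.19% of all genes were. Of 6 genes of methylthioadenosine salvage, which recycles the by-product of both aminopropyl transfers to methionine, 3 were called higher. Mtap, the phosphorylase that opens this route, had 97.6, 87.9 and 96.4 CPM with WT and 143, 139 and 123 CPM with Il6-/- recipients (1.44-fold, FDR = 0.00078). Apip was 1.43-fold higher (FDR = 0.002) and Enoph1 1.37-fold higher (FDR = 0.0062). The groups did not overlap for 6 of 6, where this held for 36.2% of all genes. Their median log2 change was 0.33, against 0.01 over all genes.

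Mat2a, which makes S-adenosylmethionine, was 1.51-fold higher with Il6-/- recipients (FDR = 0.00037), while the gene of its regulatory partner, Mat2b, was at 0.926-fold and not called. Of the ornithine and arginine supply, the cationic amino acid transporter gene Slc7a1 was 1.45-fold higher (FDR = 0.001) and Aldh18a1, an enzyme of ornithine and proline synthesis, 1.29-fold (FDR = 0.045). Arginase genes were at the edge of detection, with Arg1 at most at 17 counts and Arg2 at most at 8 counts in a library, and Otc had no count. Eif5a, whose product carries the amino acid hypusine made from spermidine, was 1.35-fold higher (FDR = 0.0067), and so was Dohh, the second hypusination enzyme, at 1.27-fold (FDR = 0.041). The calls of Mtap, Apip, Enoph1, Mat2a, Slc7a1 and Eif5a held in all 12 fits without 1 library. Aldh18a1 was called in 4 of them and Dohh in 6, and their FDRs were highest without WT Day 3 replicate 2, at 0.21 and 0.18. Both calls were lost without scaling (FDR = 0.092 and 0.09).

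On Day 5 edgeR and limma-voom called 0 of the 23 genes between genotypes and DESeq2 called 3. Of all genes, edgeR called 1.27% higher and 3.35% lower. Among the 23, 8 had an unadjusted p under 0.05, a share that was not counted over all genes. With the replicate block within day 3 were called: Atp13a2 (log2 change -0.63, FDR = 0.022), Mat2a (0.24, FDR = 0.031) and Slc7a1 (0.25, FDR = 0.041). The block and DESeq2 also called more of all genes than the main fit, as given below. In the interaction, Mtap (log2 difference 0.57 ± 0.12, FDR = 0.015), Enoph1 (0.51 ± 0.14, FDR = 0.048) and Atp13a2 (0.95 ± 0.26, FDR = 0.048) were called. Of all genes, 3.12% were called in this direction and 1.8% in the opposite one. Atp13a2, a lysosomal polyamine exporter gene, had 58.4, 61.9 and 34.7 CPM with WT and 32.2, 32.1 and 32.8 CPM with Il6-/- recipients on Day 5. The interaction of Mtap was called in 10 of 12 fits without 1 library, that of Atp13a2 in 2 and that of Enoph1 in 1, with the highest FDRs without WT Day 3 replicate 2 (0.057, 0.13 and 0.14). With limma-voom only Mtap was called, and with the block within day Mat2a was called too (0.36, FDR = 0.022).

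**Figure D5:**
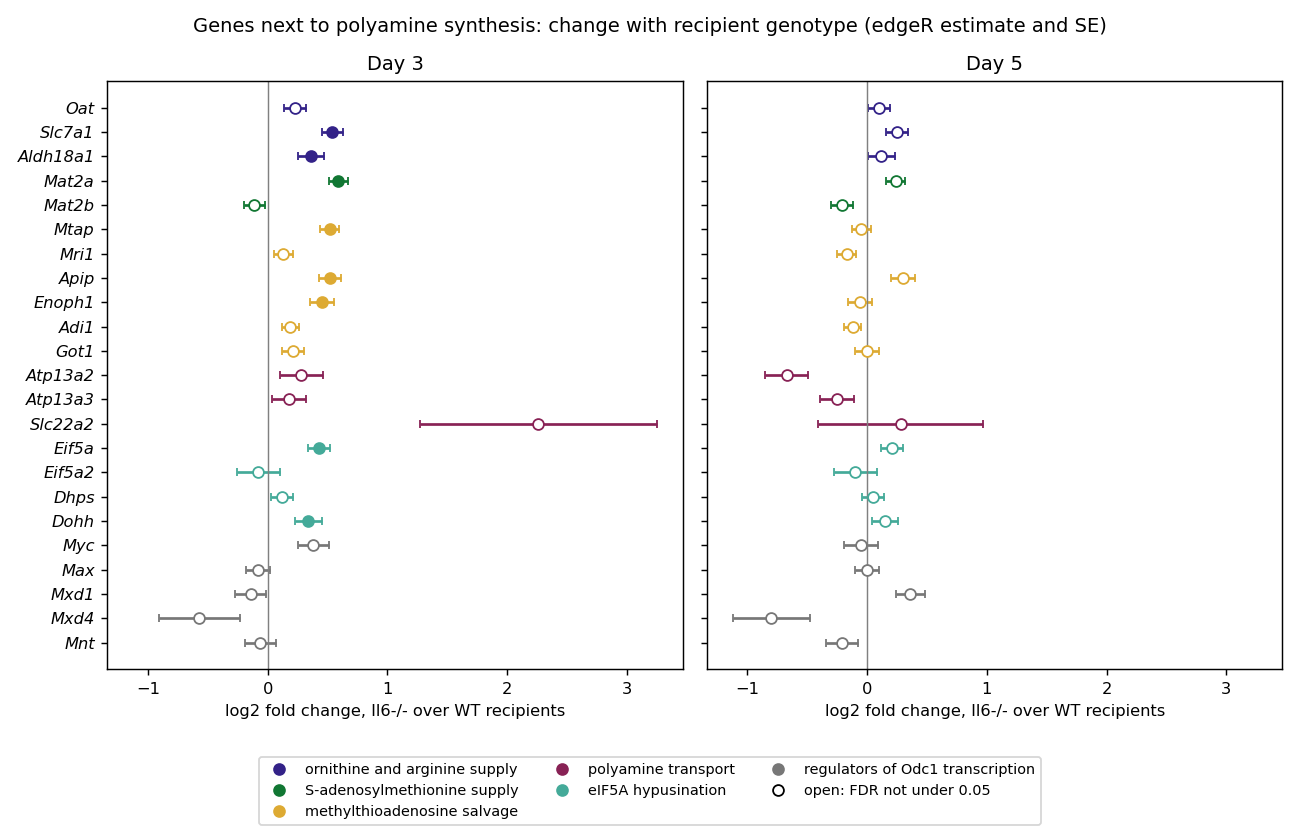
Log2 fold change (edgeR estimate, line: SE) between Il6-/- and WT recipients on Day 3 (left) and Day 5 (right) of the 23 tested genes that supply, use or regulate the pathway, coloured by list and filled where the FDR was under 0.05. Filled points, 8 in number, appear in the Day 3 panel at positive values, and none in the Day 5 panel, which shows the fit without the block.

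From Day 3 to Day 5, 6 of the 23 were called higher and 11 lower in WT recipients, beside 29.5% and 27.1% of all genes. In Il6-/- recipients 5 were called higher and 16 lower, beside 30.4% and 30.1% of all genes. Eif5a fell 2.29-fold and 2.67-fold. Slc22a2, a cation transporter gene with the largest fitted time change of the lists in WT recipients, had 0, 1 and 4 counts in the WT libraries of Day 3, so its fold is not given. The paralogs Amd2, Azin2, Oaz3, Sat2 and Satl1 were below the filter, with at most 8 counts in a library.

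Among the regulators of Odc1 transcription, Myc had 58.4, 60.8 and 53.5 CPM with WT and 81.4, 78.3 and 64.6 CPM with Il6-/- recipients on Day 3. The groups did not overlap, and its 1.3-fold difference was not called (FDR = 0.077). Without Il6-/- Day 3 replicate 3 it was called, with a log2 change of 0.47 (FDR = 0.05 after rounding). It was also called with a GC-content offset (0.41, FDR = 0.046), without the low-count filter (0.37, FDR = 0.013) and in a fit of the Day 3 libraries alone (0.35, FDR = 0.017). The limit given for Odc1 holds for Myc in the fit without the filter too. On Day 5 Myc had 51.8, 40.6 and 56.6 CPM with WT and 47.8, 55.6 and 40.9 CPM with Il6-/- recipients, and the groups overlapped. With time Myc changed 0.863-fold in WT (FDR = 0.19, or 0.041 without the filter) and fell 1.55-fold in Il6-/- recipients (FDR = 0.00081). Its partner Max and the Max-binding repressors Mxd1, Mxd4 and Mnt were called higher on Day 5 in both genotypes. Of all genes, 29.5% (WT) and 30.4% (Il6-/-) were called higher too, and 27.1% and 30.1% lower. The calls of Max in both genotypes, of Mnt and Mxd4 in WT and of Mxd1 in Il6-/- recipients held in all 12 fits without 1 library, although 1 WT library of Day 5 (9.17 CPM of Mxd4) lay below 1 of Day 3 (10.7 CPM). Mxd4 in Il6-/- recipients was called in 7 of them, with FDRs up to 0.13 (without Il6-/- Day 5 replicate 1), Mnt in Il6-/- recipients in 10 (up to 0.054, without Il6-/- Day 3 replicate 3) and Mxd1 in WT recipients in 11 (0.11 without WT Day 3 replicate 1). With time, limma-voom called 4 of the 5 regulators in each genotype. EdgeR called 4 in WT recipients, all higher, and 5 in Il6-/- recipients, with Myc lower and the others higher. Between genotypes, edgeR and limma-voom called 0 of the 5 on either day, and DESeq2 called 0 on Day 3 and 1 on Day 5. An unadjusted p under 0.05 was held by 1 on Day 3 and 2 on Day 5. Of all genes, edgeR called 7.52% higher and 6.19% lower on Day 3, and 1.27% and 3.35% on Day 5.

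Over the 12 libraries, the genes whose centred log2 CPM lay closest to those of Odc1 were Anp32b, Usp1, Tmpo, Pgp and Cpox, with a root-mean-square difference of 0.26 to 0.29 and a median over all genes of 1.21. Among the members the closest to Odc1 was Srm at 0.39, followed by Amd1 at 0.62. Closest to Sat1 were Ctss, mt-Rnr2, Pbx2, Slc50a1 and Taz, at 0.05 to 0.09 with a median over all genes of 0.65, and among the members Smox at 0.26 and Oaz2 at 0.29. The points share libraries and the large change between the days.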

How the data were processed

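The deposited values are raw read counts per gene symbol, 1 file per library. Per the labels and the study's methods, the authors trimmed 50-base single-end reads of ultra-low-input polyA RNA (Trim Galore 0.4.4), mapped these on GRCm39 (STAR 2.5.2a) and counted unique reads on genes (HTSeq 0.6.1p1) without regard to strand, so antisense reads cannot be told apart. Their trimming options are stated for paired-end reads with Nextera adapters, although the reads were single-end. A deposited table of log2 CPM was not used. HTSeq summary lines stayed out of library sizes and tests; reads outside genes, ambiguous or not unique made up the rest beside the shares on genes given above.

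The tests used edgeR 4.0.16 in R 4.3.3 (filterByExpr, TMM factors between 0.944 and 1.06, quasi-likelihood test, 1 coefficient per group, all 12 libraries), with DESeq2 1.42.0 and limma 3.58.1 as alternatives. The median biological coefficient of variation was 0.132. SE is the log2 change over the square root of F. Likeness used a prior count of 2. The main edgeR fit was tested on simulated data for the Day 3 genotype comparison alone, with the same spread set for all genes. The other comparisons and the alternatives were not tested in this way. With 3 libraries against 3, an exact permutation test of a single gene cannot go below p = 0.1, so none is given. Positions, exon lengths and sequence came from GENCODE vM39 on GRCm39, where Azin1 names 2 loci and the larger was used. Of the symbols, 79.5% were matched.

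Members and lists were chosen with earlier results of these data known. The genes named are the members, the neighbouring genes called in a genotype comparison or with the largest change of their list, and the 5 nearest to Odc1 and Sat1. The ratio of Srm to Sms and some genes named for absence or as partners were added after values were seen. Deviations from group means of same-numbered libraries of a day correlated at 0.03, 0.06 and 0.03 on Day 3 and at 0.24, 0.21 and 0.13 on Day 5. The labels do not say what a number shares. Each correlation was over 0.1 on Day 5 alone, but the replicate block within day paired same-numbered libraries on both days. Its interaction results thus also rest on a pairing of Day 3 libraries, where no correlation was above 0.06. The block was chosen from these same data, so calls made only under it are not independent support. No pair of replicates agreed within counting noise.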

Additional observations from a re-analysis of the deposited data

Results flagged for a closer look

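The genotype change differed between the days, by the interaction test of edgeR, for Srm (log2 difference 1.99, Day 3 minus Day 5, FDR = 0.0043), Mtap (0.57, FDR = 0.015), Enoph1 (0.51, FDR = 0.048) and Atp13a2 (0.95, FDR = 0.048). Srm was called in all 12 fits without 1 library, and Atp13a2 in 2 and Enoph1 in 1. The groups hold 3 libraries each, too few for a test of single outlying libraries.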

How the results depend on the processing

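On Day 3, members called went from 4 to 1 when a 2-fold change was also required, and all genes from 1861 to 372. Without 1 library they ranged from 3 to 4 and from 942 (without WT Day 3 replicate 2) to 2042. On Day 5 the members called, 1 as reported, were 0 with the 2-fold limit or limma-voom, 2 with RLE scaling, no scaling or DESeq2, and 3 without the low-count filter or with the replicate block within day. All genes called on Day 5, 626 as reported, were 155 with the 2-fold limit, 1397 without the filter, 1127 with DESeq2, 1592 with the block within day and 359 with the Day 5 libraries alone. Without 1 library they ranged from 225 (without WT Day 5 replicate 1) to 1169 (without Il6-/- Day 5 replicate 1), and members from 0 to 3. In the interaction, members called went from 1 to 2 without the filter and 3 with the block within day. All genes went from 668 to 187 with the 2-fold limit, 1300 without the filter, 1132 with DESeq2 and 1564 with the block. Without 1 library they ranged from 235 (without WT Day 3 replicate 2) to 943, and members from 1 to 2. With the 2-fold limit, all genes changed with time numbered 2996 in WT and 3509 in Il6-/- recipients, where 7688 and 8211 were reported, and members called went from 9 to 6 in both. Members called were otherwise 9, or 10 with Oaz1 added in Il6-/- recipients (without Il6-/- Day 5 replicate 3, or with the GC-content offset, alone or with the replicate block) and in WT recipients (GC-content offset with the replicate block). A replicate block over all groups lost the calls of Smox (log2 change -0.57, FDR = 0.056), Aldh18a1 (FDR = 0.053) and Dohh (FDR = 0.054) on Day 3 and of Enoph1 in the interaction (FDR = 0.052), and changed no other call of the genes named in those comparisons. The causes of these differences were not tested.

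Among the changes that turned sign, none was called. Oaz1 became -0.05 (no scaling) and -0.02 (Day 3 alone) on Day 3, 0.01 (RLE and DESeq2) and 0.03 (no scaling) on Day 5, -0.01 (RLE and DESeq2) and -0.08 (no scaling) in the interaction, and 0.03 with time in Il6-/- recipients (no scaling). Sat1 became -0.01 in the interaction (no scaling). Without 1 library, Oaz1 ranged from -0.03 to 0.05 on Day 3, -0.09 to 0.04 on Day 5 and -0.07 to 0.1 in the interaction. Likewise Paox ranged from -0.14 to 0 on Day 3, Oaz2 from -0.18 to 0.02 and Myc from -0.17 to 0.06 on Day 5, and Oaz2 from -0.22 to 0.01 and Sat1 from -0.08 to 0.19 in the interaction.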

Other observations

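The ratio of Sat1 to Odc1 CPM within a library set a catabolic gene that rose with time against a synthesis gene that fell. On Day 3 it was 0.555, 1.36 and 1.4 with WT recipients, and 0.603, 0.644 and 0.795 with Il6-/- recipients. On Day 5 it was 7.3, 4.26 and 6.88 with WT recipients, and 12.7, 7.19 and 6.93 with Il6-/- recipients. All Day 5 libraries lay above all Day 3 libraries. The ratio was chosen after the values had been seen and was not tested. It does not stand for the catabolic genes as a set, as Paox fell with time (1.9-fold in WT and 1.59-fold in Il6-/- recipients).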
